A study of Oryza sativa with 4 samples.

Results

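The genes described here are 10 rice genes of the tapetum and the pollen wall, *MSP1*, *GAMYB*, *TDR*, *TIP2*, *EAT1*, *PTC1*, *CYP703A3*, *OsC6*, *OsC4* and *RTS*. They were chosen by name from what is known of anther development and not by a cut on their signals. Earlier results of these data were known when the list was drawn up, so the choice was not blind to the data. Each of the 10 has a probe set that the annotation gives to it alone, as do 17905 genes on the array in all. *TIP2* here is the bHLH gene of chromosome 1 and not one of the aquaporin genes of the same name. The study hybridized total RNA of whole young panicles to 4 Affymetrix rice arrays, 1 for each combination of genotype and panicle length. The wild type (WT) was *Oryza sativa* ssp. *indica* cultivar Zhongxian 3037, and *phoenix* (*pho*) is a naturally occurring mutant from the offspring of that cultivar. By the study's account *pho* combines a point mutation of *OsMADS15* with an epigenetic silencing of *OsMADS1*, and its panicles carry plantlets in the place of flowers. In both genotypes the first array holds panicles 5–8 cm long and the second panicles 9–12 cm long, all grown in paddy fields, so the arrays of a genotype differ in length and no condition has a second array. Whether the panicles of a genotype were taken from different plants is not stated, and p values measure only the spread between these samples.

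The tapetum is the innermost cell layer of the anther wall. It feeds the developing pollen, makes precursors of the outer pollen wall (exine) and then breaks down by programmed cell death. In rice a receptor kinase, MSP1, sets up the anther wall early, a series of transcription factors then drives the tapetum through differentiation and death, and enzymes and lipid carriers made under their control supply the lipids of the anther cuticle and the exine. The genes are taken in that order below, and the signals are MAS5 values on a linear scale, as the authors deposited them. Signals of different probe sets are not set against each other, except in sums over the markers of a tissue, which the strongest probe sets dominate.

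Before the genes themselves, the labels and arrays were checked. *OsMADS1* reached 10166 at 5–8 cm and 10671 at 9–12 cm in WT but 4.6 and 109 in *pho*, which follows the sample titles, although a line of the description of the 9–12 cm WT sample names *pho*. The median signal of all probe sets was between 49.0 and 68.1 on the 4 arrays, and a signal near or under these medians is treated as close to background. Of 8 markers of panicle tissue 7 had a probe set, and their summed signal was 30805 and 27545 in WT and 38655 and 31068 in *pho*. Much of the sum is *OsMADS15* (14444 to 16022), the gene mutated in *pho*. *OsMADS14* was more than 2-fold higher in *pho* at both lengths (2448 and 1879 in WT, 5182 and 5303 in *pho*), and *OsMADS34* was higher in *pho* as well (570 and 616 in WT, 2270 and 786 in *pho*). Among the others, *FZP* (2.7 to 30.7) was under the array median on all 4 arrays and *LAX1* (60.6 to 156) was not far from it. The *pho* array of 9–12 cm stood apart, with correlations of 0.796 to 0.827 with the other arrays, which had correlations of 0.877 to 0.935 among themselves.

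Signals of the tapetum and pollen wall genes were lower in the mutant panicles. Of the 10 genes 6, *GAMYB*, *TDR*, *TIP2*, *EAT1*, *CYP703A3* and *OsC4*, were at least 2-fold lower at 5–8 and at 9–12 cm on the log2(signal + 16) scale, compared with 1.90% of all 23929 tested probe sets. *MSP1*, *OsC6* and *PTC1* were also lower at both lengths, but less than 2-fold lower at 5–8 cm on that scale. For 7 of the 9 tested genes both *pho* arrays lay below both WT arrays, which held for 21.1% of all tested probe sets. The exceptions were *OsC6* and *PTC1*, whose signals in WT panicles of 5–8 cm were themselves close to background. The median log2 fold change of *pho* over WT was -3.91 over the 9 genes and -0.03 over all tested probe sets. These counts are a description, because 4 of the 9 genes, *TDR*, *TIP2*, *EAT1* and *CYP703A3*, passed the minimum mean signal of 100 through their WT arrays alone, and *RTS* did not pass it.

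**Figure D1:**
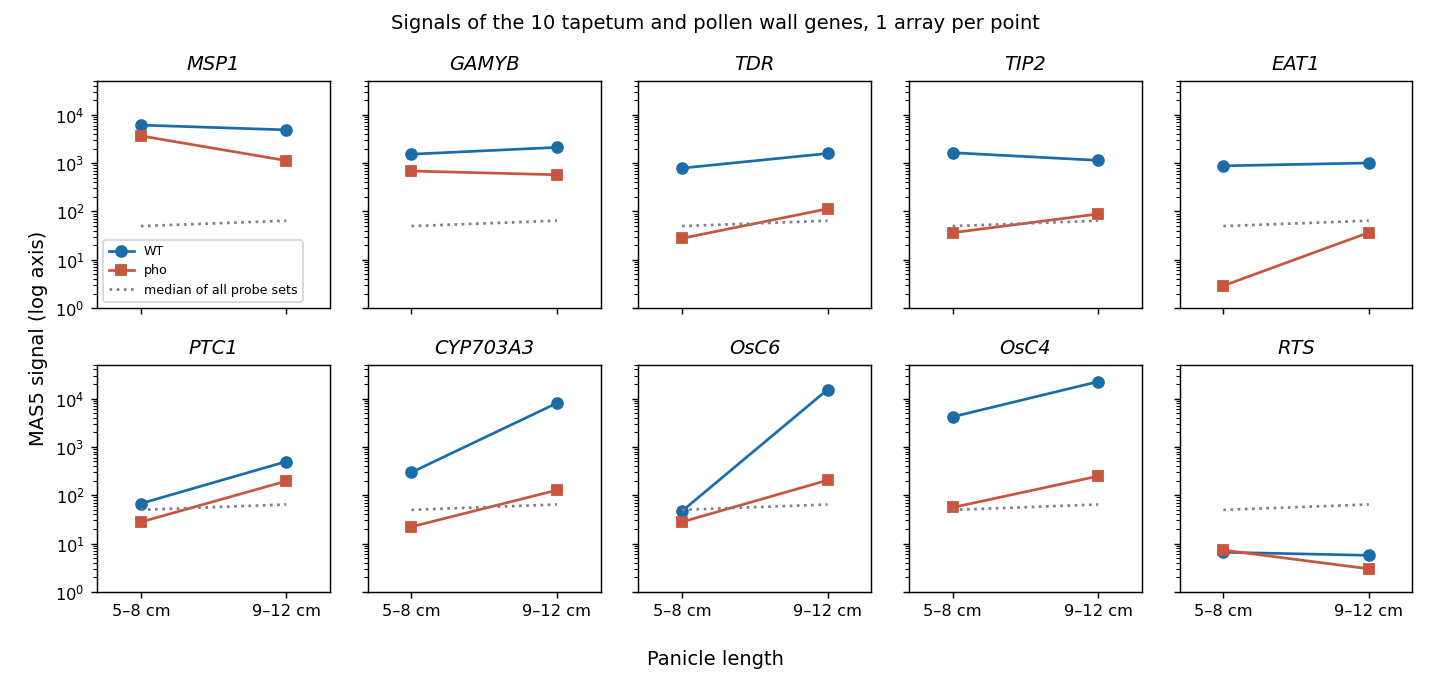
MAS5 signal (log axis) of each of the 10 genes against panicle length, 1 array per point, with WT as blue circles and *pho* as red squares, and the median of all probe sets (mean of the WT and *pho* arrays of that length) as a dotted line. *TDR*, *TIP2* and *EAT1* were well above the median in WT at both lengths and near or under it in *pho*, whereas *CYP703A3*, *OsC6* and *OsC4* were higher in the longer WT panicles, and *RTS* was at background on all 4 arrays.

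The early genes *MSP1* and *GAMYB* kept clear signals in *pho*. *MSP1*, a leucine-rich repeat receptor kinase that limits the number of cells entering sporogenesis and is needed to start the anther wall, gave signals of 6127 and 4876 in WT, against 3669 and 1127 in *pho*, each pair giving 5–8 cm first and 9–12 cm second. The gene was lower in *pho* at both lengths without reaching background at either, and the difference was larger at 9–12 cm. Over the 4 arrays the log2 fold change came to -1.42 (limma, SE 0.595, adjusted p = 0.741), and leaving out the *pho* array of 5–8 or of 9–12 cm gave -2.26 and -0.57. *TDL1A*, which encodes the small secreted ligand of MSP1, gave signals of 199.8 and 134 in WT, against 111 and 228 in *pho*, so that the genotypes overlapped. *GAMYB*, a MYB transcription factor of gibberellin signalling that is required for tapetum and exine formation, gave signals of 1531 and 2118 in WT, against 686 and 575 in *pho*. The WT signal was 2.23 times the *pho* signal at 5–8 cm and 3.68 times at 9–12 cm. The log2 fold change came to -1.50 (limma, SE 0.321, adjusted p = 0.513). The probe set of *GAMYB* is of a type that can match several transcripts, so its signal may not come from this gene alone.

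The bHLH regulators had signals close to background in *pho*. TIP2, TDR and EAT1 are bHLH transcription factors of the tapetum. TIP2 acts early, TDR is needed for the tapetum to degenerate, and EAT1 switches on protease genes of tapetal cell death. *TIP2* gave signals of 1644 and 1140 in WT, against 36.4 and 88.6 in *pho*. *TDR* gave signals of 789 and 1585 in WT, against 27.8 and 113 in *pho*. *EAT1* gave signals of 878 and 1007 in WT, against 2.9 and 36.6 in *pho*. At 5–8 cm all 3 genes lay under the array median of 50.5 in *pho*, and at 9–12 cm *EAT1* still lay under the median of 68.1, while *TIP2* and *TDR* lay a little above it. With 16 added to both signals, WT exceeded *pho* 31.7-fold for *TIP2*, 18.4-fold for *TDR* and 47.3-fold for *EAT1* at 5–8 cm. At 9–12 cm the corresponding folds were 11.1, 12.4 and 19.5. Each of these folds depends on the background of the *pho* array, and for *EAT1* at 5–8 cm the plain ratio of the signals was 303. The log2 fold changes were -4.23 for *TIP2* (limma, SE 0.479, adjusted p = 0.181), -3.91 for *TDR* (limma, SE 0.673, adjusted p = 0.380) and -4.92 for *EAT1* (limma, SE 0.619, adjusted p = 0.214). Among the members the profiles of *EAT1* and *TIP2* over the 4 arrays were the most alike, with a root mean square difference of 0.46 in centred log2 signal, followed by *EAT1* and *TDR* (0.58) and by *GAMYB* and *MSP1* (0.58).

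*PTC1*, a PHD-finger protein that acts late in tapetal death and pollen wall formation, differed less between the genotypes than between the lengths. Its signals were 67.3 and 497 in WT and 27.9 and 196 in *pho*. At each length the WT signal was the higher, by 2.41 times at 5–8 cm and 2.53 times at 9–12 cm, but the *pho* array of 9–12 cm lay above the WT array of 5–8 cm. The log2 fold change came to -1.10 (limma, SE 1.19, adjusted p = 0.843), and it turned to 0.21 when the longer WT sample was left out and to 0.04 when the shorter *pho* sample was. The probe set of *PTC1*, like that of *GAMYB*, can match several transcripts.

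The enzyme and lipid carrier genes showed their highest signals in WT panicles of 9–12 cm and lower signals in *pho*. On the *pho* array of 9–12 cm *CYP703A3*, *OsC6* and *OsC4* nevertheless lay above the array median of 68.1. *CYP703A3*, a cytochrome P450 that hydroxylates a fatty acid for the cuticle and the exine, gave signals of 298 and 8069 in WT, against 22.2 and 128 in *pho*. WT exceeded *pho* 8.21-fold at 5–8 cm and 56.3-fold at 9–12 cm with 16 added. The fitted difference was a log2 fold change of -4.43 (limma, SE 1.64, adjusted p = 0.717), with an error that includes the difference between the WT lengths. Without the WT array of 5–8 cm it was -6.77, and without that of 9–12 cm -2.08. *OsC6*, a lipid transfer protein that carries wall lipids from the tapetum, gave signals of 47.0 and 15333 in WT, against 28.0 and 204 in *pho*. At 5–8 cm both genotypes lay under their array medians and no fold is given, whereas at 9–12 cm WT exceeded *pho* 69.6-fold with 16 added. Fitted over both lengths the log2 fold change came to -3.32 (limma, SE 2.64, adjusted p = 0.808), and it turned to 0.64 without the WT array of 9–12 cm, on which the difference rests. *OsC4*, first isolated as a transcript of the anther, gave signals of 4194 and 22432 in WT, against 55.8 and 249 in *pho*. It had the largest difference of the 10 genes, 58.6-fold at 5–8 cm and 84.8-fold at 9–12 cm with 16 added, and the log2 fold change of -6.14 (limma, SE 1.01, adjusted p = 0.351) was the 10th lowest of the 23929 tested probe sets. *RTS*, an anther gene required for male fertility, gave signals of 6.6 and 5.7 in WT, against 7.3 and 3.0 in *pho*, all far under the array medians, so that its transcript was not detectable in either genotype at these lengths with this probe set.

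**Figure D2:**
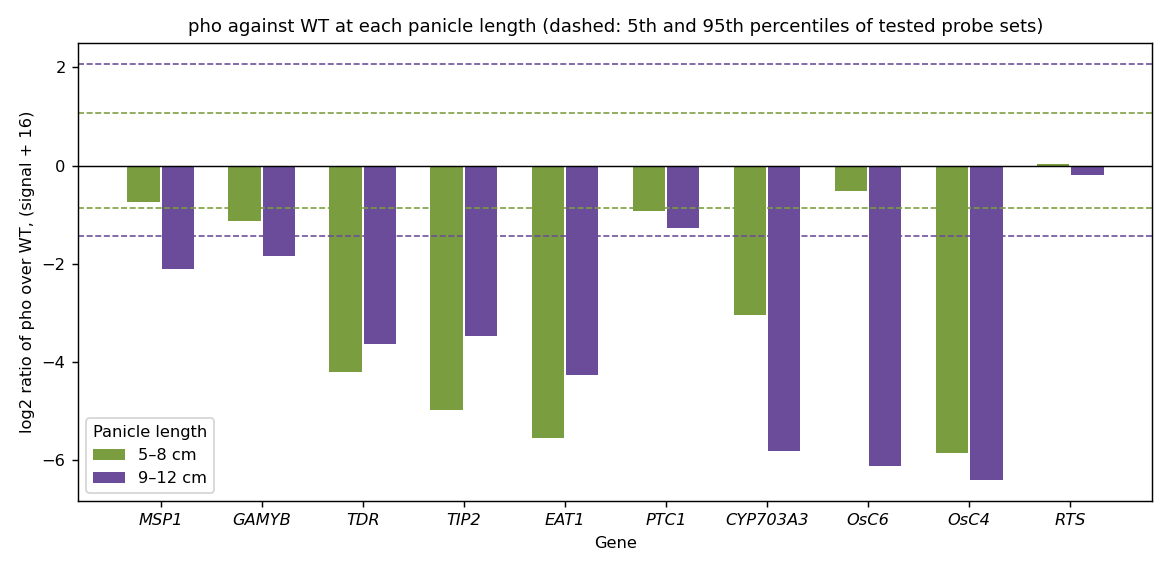
Log2 ratio of *pho* over WT, with 16 added to each signal, for each gene at 5–8 cm (green bars) and 9–12 cm (purple bars), each bar from 1 *pho* and 1 WT array, with dashed lines of the same colours at the 5th and 95th percentiles of the 23929 tested probe sets. The bars of *TDR*, *TIP2*, *EAT1*, *CYP703A3* and *OsC4* fall below -3 at both lengths, whereas *OsC6* goes from -0.52 to -6.12.

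In limma, none of the 9 tested genes passed an adjusted p of 0.05, and over all tested probe sets 0% were called lower. At an unadjusted p under 0.05, 6 of the 9 genes (*GAMYB*, *TDR*, *TIP2*, *EAT1*, *CYP703A3* and *OsC4*) were lower, among 809 probe sets that were lower (3.38%) and 826 that were higher. This count too is a description, since *TDR*, *TIP2*, *EAT1* and *CYP703A3* entered the fit through their WT signals alone. With panicle length as a block, which pairs the arrays of the same length, *OsC4* passed (adjusted p = 0.0133 from limma), among 0.134% of the probe sets called lower. After median centring of the arrays, *EAT1* and *TIP2* (adjusted p = 0.0303 each) and *OsC4* (0.0413) passed, among 0.167% of the probe sets. An exact two-sided permutation test of 2 arrays against 2 cannot give a p under 0.333.

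Markers of the stamen, the organ that holds the anther, were also lower in *pho*. The list of stamen identity markers held 5 genes, of which *OsMADS2* was left out because its symbol names several genes. The study lists *OsMADS2* as lower in *pho*, but by less than *OsMADS4* or *OsMADS3*. The 4 markers analysed, *OsMADS4*, *OsMADS16*, *OsMADS3* and *OsMADS58*, were at least 2-fold lower in *pho* at both lengths, as were 1.90% of all tested probe sets. None of the 4 passed in limma (adjusted p = 0.0773 to 0.471). Their summed signal was 12557 and 16318 in WT and 1690 and 3222 in *pho*, most of it from *OsMADS16*, and none was listed at 0. *OsMADS58* gave 2137 and 2256 in WT, against 67.8 and 65.9 in *pho*, close to background, while *OsMADS16* kept 1295 and 2868 in *pho*, against 8164 and 11380 in WT. The median log2 fold change of the 4 markers was -2.84, beside -3.91 for the tapetum and pollen wall genes. Both medians include genes that passed the minimum signal through WT alone. The study's electron micrographs of floral primordia showed no stamen or carpel in *pho*. The arrays measured whole panicles, so from these signals alone fewer anther cells and less transcript per anther cell cannot be told apart.

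In WT, the enzyme and lipid carrier genes and the PHD-finger gene *PTC1* were much higher in the longer panicles. *OsC6*, *CYP703A3*, *PTC1* and *OsC4* were at least 2-fold higher at 9–12 cm than at 5–8 cm, compared with 6.76% of all tested probe sets, and none of the 10 genes was at least 2-fold lower, compared with 3.09%. The WT signal of *OsC6* at 9–12 cm was 326 times that at 5–8 cm, or 244-fold with 16 added, and this ratio was the 3rd largest of the 23929 tested probe sets. Because *OsC6* was close to background at 5–8 cm, this fold depends on the background of that array. The corresponding ratios of signals were 27.1 for *CYP703A3*, 7.39 for *PTC1* and 5.35 for *OsC4*, and by the fold with 16 added these ratios ranked 40, 177 and 230. *TDR* lay at the threshold, 1.99-fold higher with 16 added and 2.01-fold as a plain ratio. The other genes had smaller log2 ratios, 0.46 for *GAMYB*, 0.19 for *EAT1*, -0.33 for *MSP1* and -0.52 for *TIP2*. Each ratio rests on 1 array per length and has no replicate check.

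The WT arrays also differed in the 3′ over 5′ ratio of the control transcripts, a measure of RNA quality. The 3′ over 5′ signal ratio was 10.6 at 5–8 cm and 4.95 at 9–12 cm for actin, and 16.4 and 9.62 for GAPDH, where a higher ratio stands for more degraded RNA or shorter labelled fragments. In *pho* the ratios were 3.28 and 5.26 for actin and 6.87 and 11 for GAPDH, so that they moved in opposite directions with length in the 2 genotypes. At 5–8 cm the ratios also differed between the genotypes. Their part in the differences between lengths and between *pho* and WT was not tested.

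**Figure D3:**
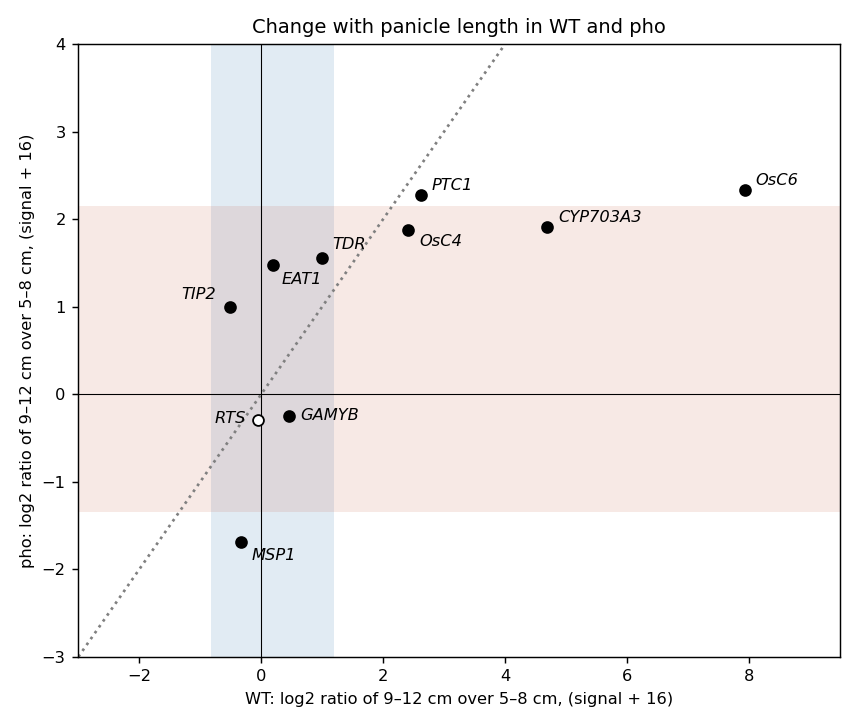
Log2 ratio of the 9–12 cm over the 5–8 cm array in *pho* (vertical) against that in WT (horizontal), with 16 added to each signal, for each gene (open point, *RTS*, under the minimum signal). The blue and red bands span the 5th to 95th percentiles of the tested probe sets in WT and *pho*, and the dotted line marks equal change. *OsC6* (7.93 in WT and 2.33 in *pho*) and *CYP703A3* (4.69 and 1.91) lie far to the right of the line, and *MSP1* (-0.33 and -1.69) lies below it.

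In *pho* the same 4 genes were also higher in the longer panicles, at much lower signals, and *TDR* and *EAT1* joined them. In all, 6 of the 10 genes were at least 2-fold higher at 9–12 cm than at 5–8 cm, compared with 13.5% of all tested probe sets. The log2 ratio was 2.33 for *OsC6*, 2.27 for *PTC1*, 1.91 for *CYP703A3*, 1.88 for *OsC4*, 1.56 for *TDR* and 1.48 for *EAT1*. *TIP2* lay just under 2-fold with 16 added, and with 1 added its log2 ratio was 1.26. With 64 in place of 16 added to the signals, those of *TDR* (0.95) and *EAT1* (0.59) were under 2-fold, since both start from signals close to background, and over the same arrays the median signal of all probe sets went from 50.5 to 68.1. *MSP1* was the 1 gene at least 2-fold lower at the longer length in *pho* (log2 ratio -1.69), compared with 10.8% of all tested probe sets, while *GAMYB* had a log2 ratio of -0.25. With 4 arrays the difference between the changes in WT and in *pho* has no residual degrees of freedom and was not tested. As values, the log2 ratio of *pho* over WT went from -3.04 at 5–8 cm to -5.81 at 9–12 cm for *CYP703A3* and from -0.52 to -6.12 for *OsC6*. For *TIP2* and *EAT1* it was less deep at the longer length, -4.99 and then -3.47 for *TIP2*, and -5.56 and then -4.28 for *EAT1*.

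Other genes of the tapetum and the pollen wall were taken from lists drawn up by function. *RAFTIN1*, which encodes a protein of the pollen exine made in the tapetum, gave signals of 142 and 1763 in WT, against 7.5 and 64.8 in *pho*. It was thus lower in *pho* at both lengths and higher in the longer panicles of WT, as *CYP703A3* was (log2 fold change -3.60 by limma, SE 1.32, adjusted p = 0.710). *INP1*, a gene of pollen aperture formation, gave 149 and 202 in WT, against 156 and 39.0 in *pho*. These were the 2 measured genes of 10 on the list of wall transport and exine proteins. Their median log2 fold change was -2.28, from -3.60 for *RAFTIN1* and -0.96 for *INP1*, which was not lower in *pho* at 5–8 cm. The median is a description, because both genes passed the minimum mean signal through their WT arrays alone.

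Of the genes of tapetal proteases and cell death, *AP25* and *API5* were measured. *AP25*, an aspartic protease gene that EAT1 is known to switch on, gave signals of 10580 and 16555 in WT, against 9327 and 5909 in *pho*. Its log2 fold change was -0.83 (limma, SE 0.347, adjusted p = 0.740). *API5*, a gene of tapetal cell death, gave 5973 and 5198 in WT, against 4460 and 3468 in *pho* (log2 fold change -0.50). For both genes the *pho* arrays lay below the WT arrays, as they did for 21.1% of all tested probe sets. They were the measured 2 of 7 on that list, and neither was 2-fold lower at both lengths. Of the 14 further regulators of the anther wall and tapetum 2 were measured, *TDL1A* and *DTM1*, and their median log2 fold change was -0.31. *DTM1*, a gene required for tapetum and meiocyte development, gave 1284 and 2005 in WT, against 865 and 1307 in *pho*, with WT the higher at each length by 1.48 and 1.53 times. For the 12 enzymes of sporopollenin and anther cuticle synthesis and the 6 genes of late pollen on the lists, the symbols searched did not match the gene table, so these genes were not analysed here.

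**Figure D4:**
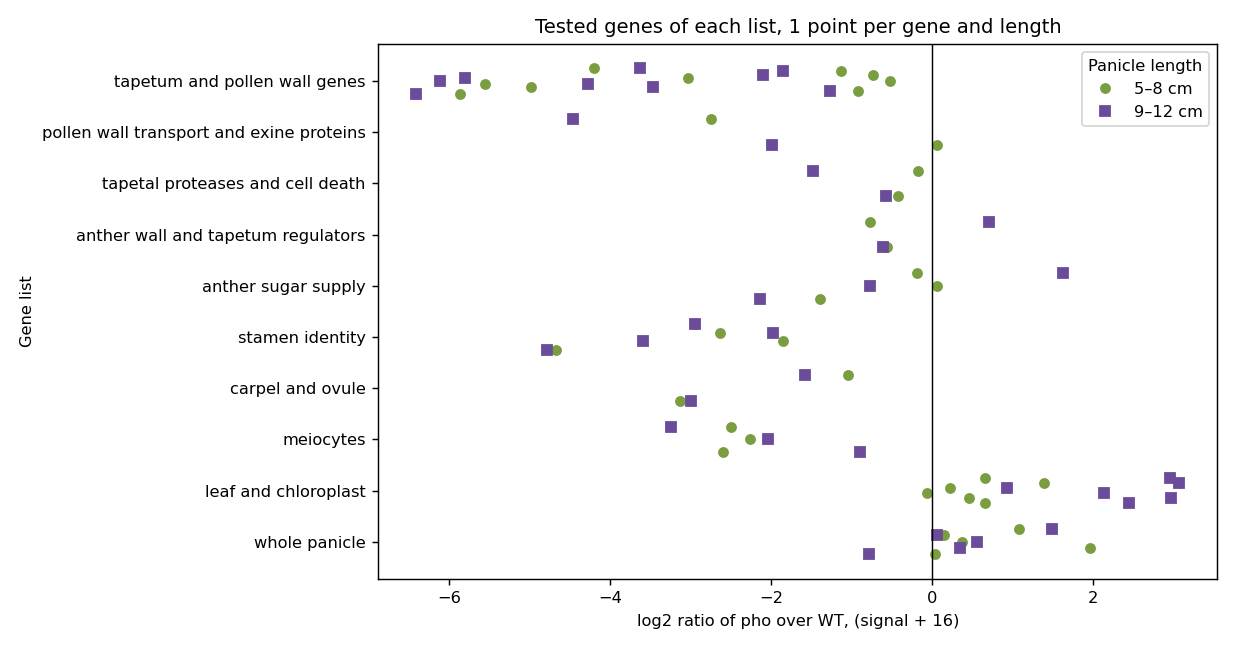
Log2 ratio of *pho* over WT, with 16 added to each signal, for every tested gene of each list, at 5–8 cm (green circles) and 9–12 cm (purple squares), 1 point per gene and length from 1 array per genotype. The tapetum and pollen wall genes (median -3.04 and -3.63 at the 2 lengths) and the stamen identity genes (-2.79 and -3.27) lie to the left of 0, whereas the genes of tapetal proteases and cell death (-0.30 and -1.03) lie closer to it.

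The named genes most like each member over the 4 arrays were found among 2091 tested genes with a name, by the root mean square difference of centred log2 signals. With 4 points the measure is a description only. The signals are centred but not scaled, so its size also depends on how much a gene varies over the arrays. *EAT1* was most like the SEP-like floral genes *OsMADS8* (0.26) and *OsMADS7* (0.35), and then like *OsMADS58* (0.54), a gene of stamens and carpels. *TIP2* was most like *TGAL4*, a bZIP gene (0.33), *OsMADS58* (0.49) and *OsMADS8* (0.50). *TDR* was most like *ILL8* (0.41), *OsC3H47* (0.52) and *OsJAZ3* (0.60). *CYP703A3* had *RAFTIN1* (*OsBURP13*) as its nearest gene (0.59), and *OsC4* had the chitinase gene *OsChia1d* (0.68). *OsC6* had no gene as near as these, the closest being *OsPCL1* (1.0), with signals of 40.7 and 3857 in WT, against 7.3 and 16.5 in *pho*. The nearest genes of *PTC1* were *OsCIPK25* (0.33), *HXK6* (0.41) and *OsUGE-1* (0.43), each of which was also highest in the WT array of 9–12 cm. *GAMYB* and *MSP1*, which varied less over the 4 arrays, had smaller differences from their nearest genes. These were *OsMAN1* (0.08), *TPP2* (0.11) and *OsGT7* (0.13) for *GAMYB*, and *IAA7* (0.11), *OsEXPB17* (0.12) and *MOF1* (0.12) for *MSP1*.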

How the data were processed

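The authors hybridized biotin-labelled cRNA to GeneChip Rice Genome Arrays, computed MAS5 signals in GCOS (versions not given in the sources used here) and brought every array to a common overall level. The deposited values are these signal intensities on a linear scale, and after trimming 2% at each end their mean was 500.1 on each array. Detection calls were not used here. Of 57381 probe sets 123 controls were left out, and 22436 of the rest have 1 gene in the annotation, 95 several and 34727 none. Genes were matched by symbol or synonym to the RefSeq gene table, where symbols shared with another gene (*DTC1*, *TIP3*) were dropped after inspection and *UGE1* was matched as UGE-1. Entries whose symbol names several genes there (*OsMADS2*, *PSS1*, *CP1*, *ZEP1*) were left out. Each matched gene was represented by its probe set of highest mean. No coordinates or sequences are given. WT and *pho* were compared in limma 3.58.1 under R 4.3.3 (lmFit, then eBayes with an intensity trend, two-sided), fitting genotype alone to log2(signal + 16). The 23929 probe sets whose mean signal reached 100 entered, p values were adjusted over all of them by Benjamini-Hochberg, and the procedure was tested on simulated data. Single arrays were compared as ratios, with at least 2-fold as the threshold and no p. The replicate numbers pair the arrays by panicle length in the labels, and the 2 arrays of 5–8 cm deviated together from the means of their genotypes (correlation 0.311). No pair of arrays was a duplicate (106 to 236 identical signals). Also tried were pseudocounts of 1 and 64, a minimum of 200 or none, quantile normalization, median centring, the mean over probe sets of a gene, the length block, no trend and leaving out each array. Genes named from each list were the up to 3 with the largest change, and those named as alike were up to 3 of the nearest. *OsMADS15*, *OsMADS16*, *FZP*, *LAX1*, *CAB2R* and *GLK1* were named after their values were seen. The members and lists were chosen with earlier results of these data known. Python 3.11.15 with matplotlib 3.10.9 drew the plots from tables built in pandas 2.3.3 and numpy 2.4.6.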

Additional observations from a re-analysis of the deposited data

Results flagged for a closer look

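For some genes the ratio between panicle lengths had opposite signs in the 2 genotypes, or the ratio between genotypes had opposite signs at the 2 lengths. Each value is a log2 ratio from 1 array on each side, and the differences were not tested. From 5–8 to 9–12 cm, *TIP2* had a ratio of -0.52 in WT and 1.0 (just under 2-fold) in *pho*, and *GAMYB* had 0.46 and -0.25. *AP25* had 0.65 in WT and -0.66 in *pho* over the same lengths.

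*TDL1A* had a ratio of -0.52 with length in WT and 0.94 in *pho*, so that the ratio of *pho* over WT changed from -0.77 in the shorter to 0.7 in the longer panicles. *INP1* had 0.4 with length in WT and -1.64 in *pho*, and *pho* over WT was 0.06 and -1.99. Of the sugar carriers, *SUT1* had a ratio of *pho* over WT of -0.19 in the shorter and 1.62 in the longer panicles, and *SWEET11*, whose probe set can match several transcripts, had 0.06 and -0.78.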

How the results depend on the processing

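The number of the 9 tested genes called lower in *pho* was 0 in the main setting, 1 with panicle length as replicate block (*OsC4*) and 3 after median centring of the arrays. The block changed no other call of these genes. Over all probe sets 0 were lower and 0 higher in the main setting, 32 and 8 with the block and 40 and 11 with centring. Centring lowered every log2 ratio of 9–12 over 5–8 cm by 0.24 in WT and 0.34 in *pho*, which turned that of *EAT1* in WT from 0.19 to -0.04. When 1 array was left out, the log2 fold change of *OsC6* ranged from -7.28 to 0.64 and that of *PTC1* from -2.41 to 0.21. A lone array is then assumed to vary like the other genotype. The other 7 tested genes were lower in *pho* in every setting tried, and the share of all probe sets for which this held was not counted. The count of genes at least 2-fold lower at both lengths was 6 or 7, that of genes at least 2-fold higher with length was 3 to 5 in WT and 4 to 7 in *pho*. Signals close to background in *pho* limit the folds of *TDR*, *TIP2*, *EAT1*, *CYP703A3* and *OsC4* at 5–8 cm, and 4 arrays limit the precision.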

Other observations

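Genes of other tissues and steps that the text has not described were also taken from lists. Of the genes of meiocytes, the cells that the tapetum surrounds, 3 of 9 were tested. Of these 3 genes 2, *PAIR2* and *MEL1*, were at least 2-fold lower in *pho* at both lengths, compared with 1.90% of all tested probe sets. *MEL1*, which encodes a germline Argonaute, gave signals of 3179 and 1111 in WT, against 650.3 and 259 in *pho* at 5–8 and 9–12 cm. *DMC1A*, a recombinase gene of meiosis, gave 492 and 163 in WT, against 67.7 and 79.6 in *pho*. In WT both were therefore higher in the shorter panicles. None of the 3 was called by limma, the smallest adjusted p being 0.388, for *PAIR2*. The count of meiocyte genes is a description, because *PAIR2* and *DMC1A* passed the minimum mean signal through their WT arrays alone.

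Of the carpel and ovule markers, *DL* gave signals of 858 and 673 in WT, against 405 and 215 in *pho*, and *OsMADS13* gave 248 and 247 in WT, against 14.0 and 16.8 in *pho*. Of the genes of sugar supply to the anther 3 of 6 were tested. *UGE1* (*OsUGE-1*), which encodes a UDP-glucose epimerase, gave 520.4 and 2630 in WT, against 187 and 585 in *pho* (log2 fold change -1.77, limma, SE 0.928, adjusted p = 0.762). *SUT1*, a sucrose transporter gene, gave 282 and 456 in WT, against 245 and 1434 in *pho*, and *SWEET11*, a sugar efflux carrier gene, gave 13958 and 12478 in WT, against 14529 and 7236 in *pho*, so that these 2 overlapped between the genotypes. The 6 leaf and chloroplast genes summed to 22387 and 16178 in WT, against 30752 and 50248 in *pho*. Much of this sum is *CAB2R* (16184.5 and 12435 in WT, 18912 and 23703 in *pho*). The largest log2 fold changes were those of *PORA* (2548 and 866 in WT, 6709 and 7392.5 in *pho*), *RCA* (910.5 and 1225, then 1437.5 and 9604) and *PSAG* (858 and 245, then 1185.5 and 2029). *GLK1* was not higher in *pho* at 5–8 cm (786 in WT, 755 in *pho*). None of the 6 genes passed in limma.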
